A study of Mus musculus with 14 samples.

Results

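The 5 wild-type (WT) libraries of granule neuron progenitors (GNPs) from mouse cerebellum at postnatal day 7 (P7) are described here, out of 14 libraries in the series. They were chosen by their label as WT controls, and no measured value was used to choose them. The 5 Het and 4 Hom libraries were made from pups carrying a Cre driven by Atoh1, which deletes floxed Chd7 on 1 allele or on both in granule lineage cells. WT 1 to 3 were labelled as Chd7 wild type with the strain written C56Bl6/J, and WT 4 and 5 as Atoh1-Cre negative with the strain written C57BL/6. No treatment was given. WT mice elsewhere in the study carry floxed Chd7 without Cre, the sex of the pups was not taken into account, and the number of pups behind a library was not given in the sources used here. Cells were enriched on a Percoll density gradient and not sorted, so other cerebellar cells of similar density can remain. WT 1 to 3 were sequenced in a first batch and WT 4 and 5 in a second, so the sequencing batch and the way the mice were labelled cannot be told apart.

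GNPs arise from the rhombic lip under the transcription factor Atoh1 and cover the cerebellum as the external granule layer. There they divide in response to Sonic hedgehog released by Purkinje cells. They then leave the cell cycle, switch on neuronal genes, extend parallel fibres and migrate inward past Purkinje cells along Bergmann glia. A preparation at P7 therefore holds cells at several of these steps.

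All levels below are TPM, a share of all transcripts in a library that is corrected for transcript length, so that levels can be compared between genes. A mean TPM of at least 1 was reached by 16628 of the 41381 genes in the table, and 14658 of these genes had a TPM of at least 1 in every WT library. Means of at least 10, 100 and 1000 TPM were reached by 10400, 1956 and 95 genes. Single libraries had between 16282 and 16618 genes at a TPM of at least 1. Their 10 most abundant genes held 8.53% to 9.81% of the TPM, and genes of the mitochondrial genome held 5.24% to 6.56%. Across genes, the Pearson correlation of log2(TPM + 1) was 0.965 to 0.969 for the 4 pairs of libraries within a batch and 0.951 to 0.960 for the 6 pairs between batches. Genes are not independent replicates, so these values only describe the libraries.

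Granule lineage factors were among the most abundant nuclear messages. Zic1 (chr9:91358058-91365810 on GRCm38), a zinc finger factor of granule cells, was at 773, 764 and 782 TPM in WT 1 to 3 and at 1167 and 1105 TPM in WT 4 and 5. Neurod1 (chr2:79452521-79456751), which drives granule neuron differentiation, was at 679, 710, 788, 873 and 1032 TPM in WT 1 to 5. Pax6 (chr2:105668900-105697364), a paired-box factor of progenitors and young granule neurons, was at 613, 628, 612, 766 and 911 TPM. All 3 genes were higher in both second-batch libraries than in every first-batch library. Such a placing is common. Of the 16628 genes with a mean of at least 1 TPM, 4423 (26.6%) were placed in this way. Another 3542 (21.3%) were lower in both second-batch libraries than in every first-batch one. By mean TPM, Zic1, Neurod1 and Pax6 ranked 80, 94 and 120 among 21461 nuclear protein-coding genes.

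Atoh1 itself (chr6:64729125-64731245), the factor that keeps progenitors dividing, was far lower, at 21.3, 24.95, 25.02, 28.2 and 50.6 TPM, and ranked 6132. WT 5 stood apart from the other 4 libraries for this gene. Chd7 (chr4:8690406-8867659), the chromatin remodeller deleted elsewhere in the study, was at 121, 152, 132, 203 and 272 TPM, with no overlap between the batches. All 4 granule lineage markers were thus present in every library, the 3 that persist into young neurons far above Atoh1.

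The most abundant transcripts overall were mitochondrial. mt-Atp8, a subunit of the mitochondrial ATP synthase, averaged 14939.5 ± 2039 TPM (SD, n = 5) and mt-Co1, a subunit of cytochrome oxidase, 12119.5 ± 942 TPM. Between them stood Gm10925 at 12803 TPM, followed by Gm28661 at 11396 TPM and Gm28437 at 10274 TPM. These 3 genes lie side by side on chromosome 1, and their reads can be shared with the genes of the mitochondrial genome. The levels of these 3 genes and of the mitochondrial genes, with the mitochondrial share given above, are therefore uncertain.

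Among nuclear protein-coding genes, the highest were those of the cytoskeleton, translation and chromatin. Tuba1a, the main alpha-tubulin of young neurons, was at 6413, 6060, 6220, 8782 and 8423 TPM. Eef1a1, a translation elongation factor, was at 6762, 6394, 6701, 7737 and 7602 TPM. Both genes were above their first-batch range in WT 4 and 5. Next came Ptma (prothymosin alpha, 4559 ± 298 TPM), Tmsb4x (the actin-binding thymosin beta 4, 3546 ± 726 TPM) and Stmn1 (stathmin 1, which destabilizes microtubules, 2984 ± 60.6 TPM; SD, n = 5 throughout). The rest of the 10 highest were H3f3a and H3f3b, which encode the replication-independent histone H3.3, the actin gene Actg1, the cyclophilin gene Ppia and the chaperone gene Hspa8, with means from 2246 to 2897 TPM. The list of 86 ribosomal protein genes, of which 82 had a mean of at least 1 TPM, summed to between 62243 and 73883 TPM and was led by Rpl13a (2136.5 TPM).

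**Figure D1:**
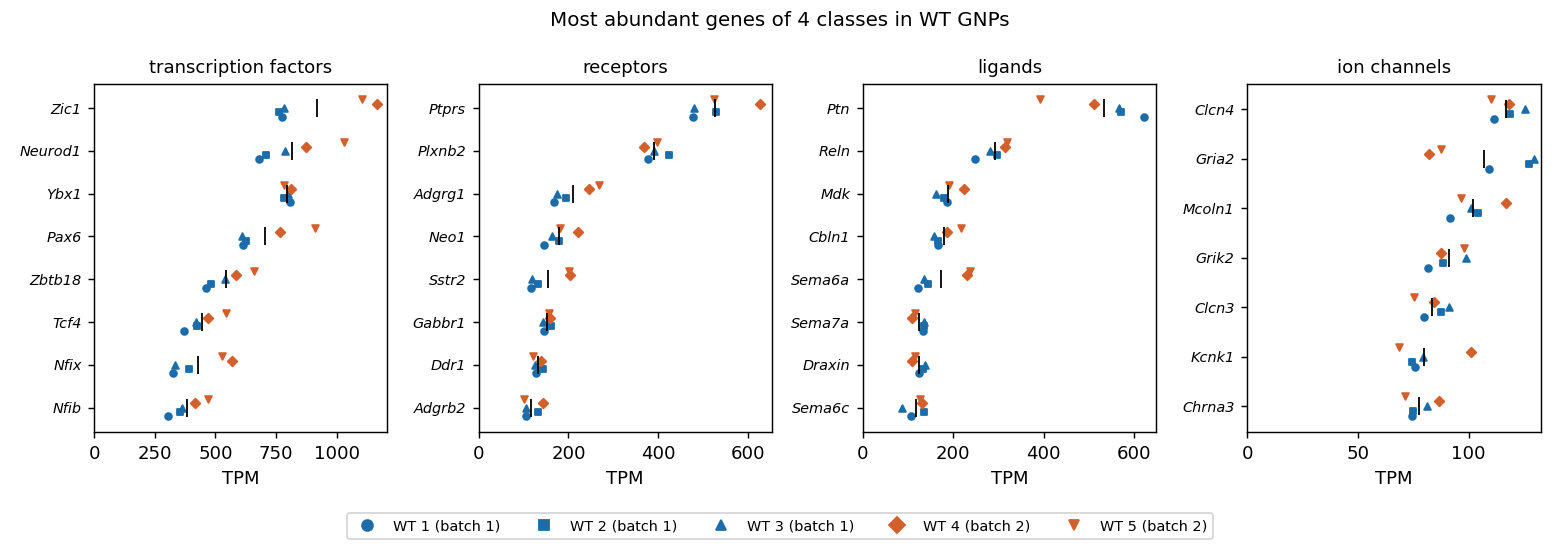
Abundant genes of 4 classes in WT GNPs, 8 per class and 7 for ion channels, with TPM on the horizontal axis, 1 symbol per library (blue for batch 1, orange for batch 2) and a black tick at the mean of 5. Zic1 led the transcription factors and Ptprs the receptors, while the highest ion channel gene, Clcn4, averaged 117 TPM.

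Of 608 transcription factor genes listed, 389 had a mean of at least 1 TPM and 53 at least 100 TPM. After Zic1 and Neurod1 came Ybx1, a cold-shock domain protein that also binds RNA, at 797 ± 13.1 TPM, and after Pax6 came Zbtb18 (545 ± 80.4 TPM), a zinc finger repressor. Tcf4, an E protein that pairs with proneural factors, averaged 446 ± 64.7 TPM. The nuclear factor I genes Nfix and Nfib, which promote granule neuron maturation, averaged 429 ± 111 and 382 ± 63.6 TPM. Next in the list were Zic2 (345 TPM), Barhl1 (315 TPM), a homeobox factor of granule cells, and Insm1 (308 TPM), a zinc finger factor of neuronal progenitors. Ybx1 varied by 1.64% of its mean over the 5 libraries, against 25.9% for Nfix and 43.3% for Insm1.

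Some hindbrain and midbrain patterning genes were expressed, while Hox genes were almost absent. Besides Barhl1, the list of 58 regional identity genes was led by Meis1 (174 ± 20.2 TPM), a homeobox cofactor, Otx2 (80.6 ± 14.8 TPM), which is made by progenitors of the posterior lobes, Barhl2 (64.3 TPM) and En2 (58.8 TPM), which patterns cerebellar folia. Of the 58 genes, 12 had a mean of at least 1 TPM. None of the 39 Hox genes in the list did, and all of them together summed to between 0.45 and 1.87 TPM per library. Hox genes mark more posterior hindbrain and spinal cord.

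Receptor genes were led by molecules of adhesion and guidance, with 217 of 344 at a mean of at least 1 TPM. Ptprs, a receptor phosphatase for proteoglycans, was at 477, 529, 480, 627 and 524 TPM, with WT 4 highest and the batches overlapping. Plxnb2, a semaphorin receptor required by dividing GNPs, averaged 391 ± 21.8 TPM, and Neo1, a receptor for netrins and repulsive guidance molecules, 178 ± 28.3 TPM. The adhesion G protein-coupled receptor genes Adgrg1 (211 ± 44.7 TPM) and Adgrb2 (118 ± 18.8 TPM), the somatostatin receptor gene Sstr2 (155 ± 43.5 TPM), the GABA-B receptor gene Gabbr1 (153 ± 7.66 TPM) and the collagen receptor gene Ddr1 (132 ± 9.75 TPM) completed the first 8. Sstr2 was at 118, 132 and 120 TPM in batch 1 and at 203 and 201 TPM in batch 2.

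Among 288 ligand genes, 152 had a mean of at least 1 TPM. The heparin-binding growth factor genes Ptn (533 ± 87.6 TPM) and Mdk (188 ± 22.8 TPM) were among the first 3. Reln, the extracellular guide of Purkinje cell positioning that granule cells secrete, stood between them at 249, 297, 282, 314 and 319 TPM. Cbln1, the synapse organizer that granule cells present to Purkinje cells, averaged 179 ± 23.8 TPM. Guidance ligands filled the next places, with the semaphorin genes Sema6a (174 ± 55.4 TPM), Sema7a (125 ± 12.8 TPM) and Sema6c (117 ± 19.8 TPM) and the repulsive guidance gene Draxin (124 ± 12.2 TPM). Sema6a, which acts in the switch from tangential to radial migration, was at 122, 143 and 136 TPM in batch 1 and 231 and 237 TPM in batch 2, whereas Sema7a and Draxin were lower in both second-batch libraries than in every first-batch one.

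Ion channel genes were expressed at lower levels, and 179 of 317 had a mean of at least 1 TPM. The endosomal chloride transporter genes Clcn4 (117 ± 6.23 TPM) and Clcn3 (83.6 ± 6.15 TPM) and the lysosomal channel gene Mcoln1 (102 ± 9.56 TPM) serve organelles. Glutamate receptor genes were represented by Gria2, the AMPA receptor subunit that limits calcium entry, at 109, 127, 129, 82.2 and 87.5 TPM, and by the kainate receptor subunit gene Grik2 (90.9 ± 7.35 TPM). Gria2 was lower in WT 4 and 5 than in WT 1 to 3. The potassium channel gene Kcnk1 (79.8 ± 12.6 TPM) and the nicotinic receptor subunit gene Chrna3 (77.7 ± 6.15 TPM) followed.

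Dividing cells and young neurons were both represented in every library. The 18 Sonic hedgehog response genes, all above 1 TPM on average, summed to 1185, 1292, 1254, 1438 and 1555 TPM. Their leading members were Ccnd2 (342 ± 12.6 TPM), a D cyclin, Sfrp1 (226 ± 22.9 TPM), a secreted Wnt inhibitor, and Mycn (138 ± 48.3 TPM), which mediates proliferation. The cyclin gene Ccnd1 averaged 94.3 TPM, the receptor gene Ptch1 74.5 TPM, the signal transducer gene Smo 69.7 TPM and the effector gene Gli1 57.3 TPM, these 4 being named after their values were seen. Mycn was at 101, 108 and 104.5 TPM in batch 1 and at 167 and 209.5 TPM in batch 2.

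All 32 S phase genes and all 36 genes of G2 and mitosis had means of at least 10 TPM. S phase genes summed to 3250, 3255, 3314, 3059 and 3449 TPM, with WT 4 lowest and WT 5 highest, so that the batches overlapped. They were led by Pcna, the sliding clamp of DNA polymerase (533 ± 61.9 TPM), the helicase subunit gene Mcm7 (278 ± 26.3 TPM) and Rrm2, which makes deoxynucleotides (189 ± 16.7 TPM). Genes of G2 and mitosis summed to 5320, 5067 and 5660 TPM in batch 1 and to 3478 and 3969 TPM in batch 2, without overlap. Their ratio to the S phase sum was therefore 1.56 to 1.71 in batch 1 and 1.14 and 1.15 in batch 2.

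Early granule neuron genes made up the largest of these sums, with 34 of 34 genes above 10 TPM and totals of 8991, 9407, 9344, 10877 and 10784 TPM. Tubb2b, a beta-tubulin of migrating neurons, averaged 1733 ± 207 TPM, and Tubb3, the neuronal beta-tubulin, 621 ± 82.5 TPM, with Neurod1 between them. Of the other members, Stmn2 (619.9 ± 20.6 TPM), a stathmin of growth cones, Cntn2 (513 ± 44.5 TPM), an axonal adhesion molecule of the inner external granule layer, Gap43 (401 ± 5.001 TPM), a growth cone protein, and Dcx (297 TPM), a microtubule protein of migrating neurons, were all abundant. Genes of mature granule neurons summed to only 542 to 636 TPM, so the early sum was 15.9 to 18.0 times the mature one. The lists differ in size (34 and 19 genes) and in how abundant their members are, so this ratio is not one of cell numbers. Most of the mature sum came from the synaptic vesicle gene Syp (195 ± 17.5 TPM) and the vesicle fusion gene Snap25 (162 ± 13.4 TPM). The receptor subunit genes that define mature granule cells, Gabra6 and Grin2c, averaged 0.592 and 0.572 TPM. The cell cycle exit list summed to 567 to 712 TPM and was led by Cdkn1b, the cell cycle inhibitor p27 (190.1 ± 15.5 TPM), the antiproliferative gene Btg1 (72.7 TPM) and the retinoblastoma gene Rb1 (69.9 TPM).

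**Figure D2:**
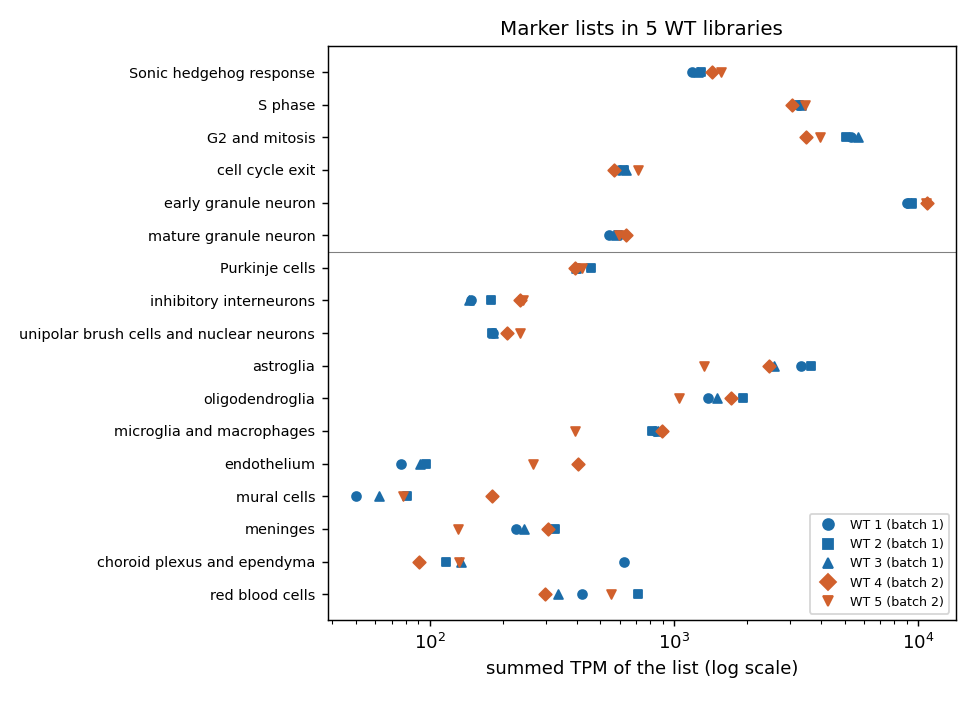
Summed TPM of 17 marker lists on a log axis, 1 symbol per WT library (blue for batch 1, orange for batch 2), with granule lineage lists above the grey line and other cell types below it. Early granule neuron genes gave the highest sums (8991 to 10877 TPM), and endothelial genes separated the batches most widely (76.5 to 96.8 against 266 and 406 TPM).

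Markers of other cell types were also present, and most of their sums varied more between libraries than those of the granule lineage lists. All of these sums were below the early granule neuron sum. The astroglia and oligodendroglia sums, with means of 2666 and 1516 TPM, were above that of the Sonic hedgehog response genes (1345 TPM). The lists differ in size and in their members, so such sums are not shares of cells. In bulk RNA, fewer cells of a type and less RNA per cell cannot be told apart. The 20 astroglia genes, which include Bergmann glia markers, summed to 3329, 3643, 2574, 2447 and 1335 TPM, and all 20 had a mean of at least 1 TPM. Apoe, a lipid carrier of glia, was at 1014, 1033, 848, 1001 and 372 TPM. The glial fatty acid-binding protein gene Fabp7 was at 973, 979, 669.8, 346 and 176 TPM, with no overlap between batches. The defining markers Gfap, Aqp4 and Gdf10 averaged 68.5, 95.2 and 68.5 TPM and were lowest in WT 5, where Gfap was at 13.8 TPM. Vim, an intermediate filament gene that progenitors and blood vessels also express, did not follow this order and averaged 332 ± 34.9 TPM.

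Oligodendroglia genes summed to 1379, 1925, 1505, 1714 and 1055 TPM, again with WT 5 lowest. The myelin genes Mbp and Cnp averaged 459 ± 100.3 and 157 ± 35.6 TPM. Pdgfra, a receptor of their precursors, varied less (81.2 ± 6.44 TPM), and the lineage factor gene Sox10 averaged 21.1 ± 6.08 TPM. The 18 microglia and macrophage genes summed to 835, 812, 859.99, 894 and 394 TPM. All 18 were lowest in WT 5, among them the complement gene C1qa (86.0, 78.2, 82.0, 87.2 and 39.8 TPM). Among all 16628 genes tested, WT 5 was the lowest library for 3021.

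Of the 16 endothelium genes, 15 were higher in both batch 2 libraries than in every batch 1 library (26.6% of all genes tested). The other 1 was lower in both (21.3% of all genes tested). The 16 endothelium genes summed to 76.5, 96.8 and 91.7 TPM in batch 1 and to 406 and 266 TPM in batch 2. Cldn5, a tight junction gene of brain endothelium, was at 9.14, 14.03 and 11.3 TPM against 107.55 and 52.1 TPM, and Pecam1, an endothelial adhesion gene, at 3.58, 3.62 and 4.57 against 20.3 and 11.7 TPM. Mural cell genes summed to 50.2, 80.9, 61.9, 181 and 77.9 TPM, so that WT 4 was highest and WT 5 lay within batch 1, and their defining genes Rgs5, Pdgfrb and Acta2 averaged 25.7, 6.09 and 1.51 TPM. Meninges genes summed to 226, 326, 244, 307 and 131 TPM. Their defining genes Dcn, Col1a1 and Foxc1 averaged 39.7, 21.1 and 2.36 TPM. Haemoglobin genes dominated the red blood cell list, which summed to 422, 715, 337, 296 and 553 TPM and was led by Hba-a2 and Hbb-bs.

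Purkinje cell markers did not share 1 order of batches. The homeobox gene Lhx1 (122, 144, 139.6, 175 and 220.3 TPM) and the Notch ligand-like gene Dner (66.7, 76.3, 72.1, 129 and 105 TPM) were higher in WT 4 and 5. The 3 defining markers were low throughout and lower in batch 2. Pcp2 was at 27.8, 30.6, 18.5, 2.05 and 0.39 TPM, Calb1, a calcium-binding protein gene, at 17.6, 18.4, 13.1, 1.76 and 0.61 TPM, and Ppp1r17 at 1.69, 1.12, 1.13, 0.36 and 0.47 TPM. Inhibitory interneuron genes summed to 147 and 145 TPM in WT 1 and 3, 179 TPM in WT 2, and 235 and 241 TPM in WT 4 and 5. Gad1, which makes GABA, averaged 46.1 ± 6.63 TPM, the interneuron progenitor factor gene Pax2 24.5 ± 9.80 TPM and the vesicular transporter gene Slc32a1 13.1 ± 3.69 TPM. Eomes, a marker of unipolar brush cells, averaged 22.8 ± 5.18 TPM, while the other 2 defining markers of that list, Lmx1a and Tbr1, averaged 0.348 and 1.65 TPM.

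The choroid plexus gene Ttr, which encodes the thyroid hormone carrier transthyretin, was at 488, 0.42, 36.2, 1.71 and 9.44 TPM. WT 1 alone was high, and the second defining marker, Folr1, was also highest there (8.98 TPM against 0.60 to 2.32 TPM). The list of 10 summed to 624 TPM in WT 1 and to 90.2 to 135 TPM in the others, of which Otx2, a gene that GNPs themselves express, gave 68.8 to 106 TPM. Foxj1, a gene of ciliated ependyma, was at 12.1 and 10.98 TPM in WT 1 and 2 and at 4.85 to 5.76 TPM in the other 3 libraries.

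The spread between libraries was modest for most genes. Over the 10400 genes with a mean of at least 10 TPM, the median coefficient of variation was 12.3%, with 5.84% and 26.6% at the 10th and 90th percentiles. It was under 5% for 640 genes and over 50% for 212. The steadiest genes were Vps53, a vesicle tethering gene (43.7 to 44.3 TPM), Itgav, an integrin gene (39.9 to 40.7 TPM), Aagab, Trim46, the histone methyltransferase gene Ehmt2 and Dcun1d5, with coefficients from 0.574% to 1.17%. Among the 212 variable genes, the library farthest from the median was WT 5 for 70, WT 1 for 42, WT 4 for 39, WT 3 for 37 and WT 2 for 24. The 6 most variable genes were Ttr, the activity-regulated factor genes Npas4, Atf3 and Klf2, and the short RNA genes Gm23419 and Gm22744, each of which was listed at 0 in at least 3 libraries.

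Immediate early genes, which cells switch on within minutes of a stimulus, set WT 5 apart. The 25 genes summed to 949, 999, 1059, 639 and 3146 TPM. All 25 were highest in WT 5, and 18 were lowest in WT 4, the other library of that batch and the lowest for 4114 of all 16628 genes tested. Fos, a subunit of the AP-1 factor, was at 157, 165, 186, 55.4 and 666 TPM, and its partner gene Jun at 187, 205, 206, 107 and 459.6 TPM. Npas4, induced by calcium entry in neurons, was at 2.24, 2.26, 3.71, 0.69 and 68.5 TPM. Atf3, a stress-induced factor gene, was at 6.61, 5.55, 4.66, 2.38 and 96.8 TPM. Among all genes tested, WT 5 was the highest library for 4021 of 16628. In the 9 Het and Hom libraries the same list summed to 575 to 919 TPM.

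The promoter of Npas4 is shown because this gene had the largest ratio of WT 5 to the median library among listed genes with the searched motif. Promoter windows of 300 bases (250 before and 50 after the start site) came from RefSeq on GRCm38, and 22796 windows of 18696 genes matched the table by symbol. TGACGT, the core of the cyclic AMP response element, was searched on both strands. It occurred in 10 of 25 windows of 21 immediate early genes (40%), and in 8.58% of all windows. The 200 bases before the start (chr19:4989972-4990171, minus strand) are given with the motif in capitals.
Npas4: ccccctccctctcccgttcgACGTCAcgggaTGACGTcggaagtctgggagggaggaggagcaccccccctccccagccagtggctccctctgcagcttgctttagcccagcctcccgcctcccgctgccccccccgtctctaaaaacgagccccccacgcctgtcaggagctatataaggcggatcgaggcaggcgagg
Both copies lie close together near the upstream end. A match is a description of letters and not a bound site.

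**Figure D3:**
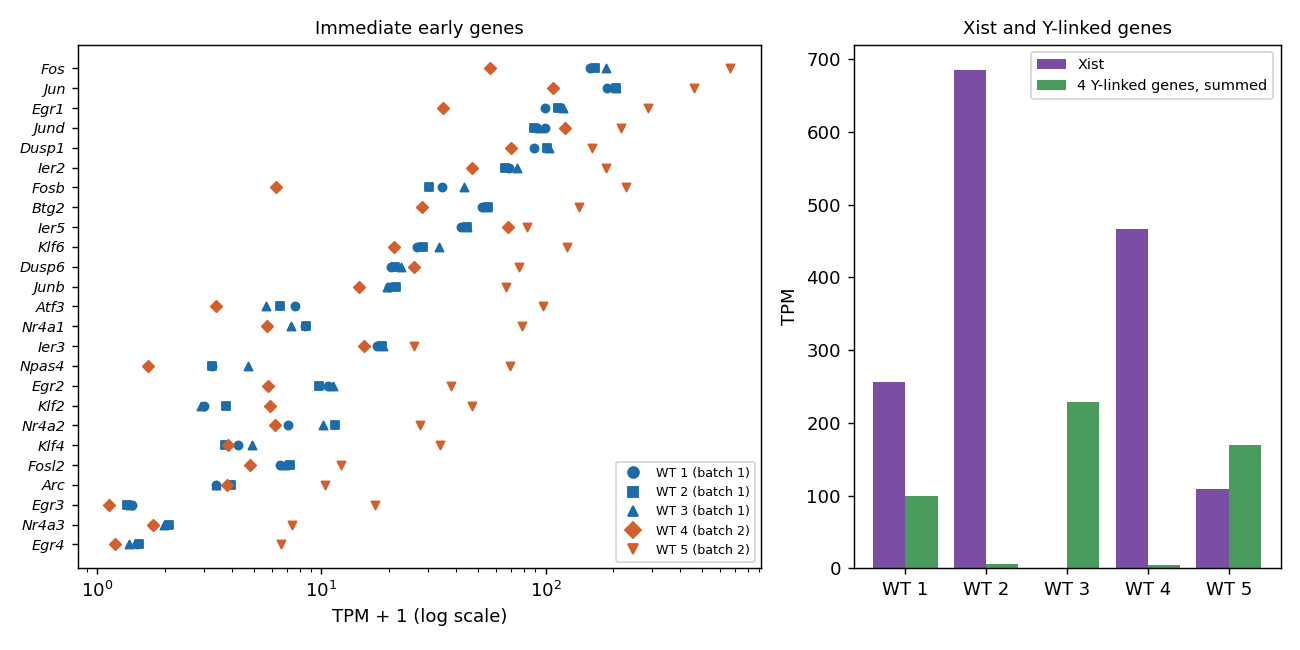
Left, TPM + 1 (log axis) of 25 immediate early genes, 1 symbol per WT library; right, bars of the TPM of Xist and of 4 Y-linked genes summed, per library. WT 5 was highest for all 25 early genes, and Xist ran from 0.24 TPM in WT 3 to 686 TPM in WT 2.

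Sex-linked genes differed between the libraries. Xist, the RNA that silences 1 X chromosome in females, was at 256, 686, 0.24, 467 and 109 TPM in WT 1 to 5. The Y-linked genes Eif2s3y, Ddx3y, Kdm5d and Uty summed to 98.7, 5.59, 229, 4.34 and 169 TPM. WT 2 and WT 4 thus had Xist with Ddx3y at 0.13 and 0.10 TPM, WT 3 had Y-linked genes almost without Xist, and WT 1 and WT 5 had both.

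The 2 sequencing batches were compared with limma on log2(TPM + 1) over the 16628 genes with a mean of at least 1 TPM, and differences below are batch 2 minus batch 1 on this log2 scale with their standard errors (SE). At an adjusted p under 0.05, 691 genes were higher in batch 2 (4.16% of those tested) and 465 were lower (2.8%), together 6.95%. The first principal component of the 5 libraries held 40.0% of the variance and separated the batches, with scores of -31.0, -16.8 and -27.5 against 37.6 and 37.7. An unadjusted p under 0.05 was reached by 2838 higher and 2071 lower genes. The calls rested on all 5 libraries. Without WT 1, WT 2, WT 3, WT 4 or WT 5 in turn, 7, 7, 6, 79 and 5 genes were called higher and 3, 2, 7, 15 and 0 lower.

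Genes of G2 and mitosis were lower as a group. Of 36 genes, 25 were called lower (69.4%, against 2.8% of all genes tested) and none higher, 34 had both second-batch libraries below the first batch (21.3% of all genes were so placed), and the median difference was -0.58, against 0.02 for all genes tested. Top2a, the topoisomerase of dividing cells, was at 557.5, 511, 605, 281 and 351 TPM (difference -0.82 ± 0.12 SE, limma adjusted p = 0.0320). Ccnb1, the mitotic cyclin, was at 321.9, 278.5, 327.5, 174.7 and 199.9 TPM (-0.72 ± 0.10 SE, limma adjusted p = 0.0320). The kinase gene Cdk1 was at 294, 257, 271, 185 and 215 TPM (-0.45 ± 0.10 SE, limma adjusted p = 0.0481). In each of these genes both libraries of batch 2 lay below all 3 of batch 1. Mki67 (-0.36 ± 0.08 SE) and Hmgb2 (-0.27 ± 0.08 SE) were not called. With any 1 library left out none of the 36 was called, while 29 to 34 had an unadjusted p under 0.05 and the median stayed between -0.69 and -0.50. Of 32 S phase genes, 3 were called higher (9.4%, against 4.16% of all genes tested) and 1 lower (3.1%, against 2.8%), and the median was 0.10. The 3 were the licensing factor gene Cdt1, the helicase subunit gene Mcm2 and the chromatin assembly gene Chaf1b, and the 1 was the polymerase gene Pola1, named after their values were seen. None of the 32 was called by limma without WT 1, WT 2 or WT 3. Their median became -0.03 without WT 5 and 0.17 without WT 4.

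The promoters of 3 G2 and mitosis genes are shown because many windows of this list share 2 motifs. These are the cell cycle genes homology region (CHR, searched as TTTGAA or TTCGAA) and the CCAAT box (searched as CCAAT), on both strands. TTCGAA reads the same on both strands and was counted once, and no motif copies overlap in the stretches printed. Of 32 windows from 31 genes in the table, 26 held a CHR (81.3%, against 17.5% of all windows), 26 a CCAAT box (81.3% against 37.6%) and 23 both (71.9% against 7.02%). S phase genes held a CHR in 5 of 31 windows (16.1%) and early granule neuron genes in 4 of 43 (9.30%). A CCAAT box was in 58.1% and 55.8% of the windows of these 2 lists, also above the share of all windows. Both motifs were in 12.9% and 2.33% of them. The 3 were the most abundant called genes with both motifs in the 200 bases before the start site, and capitals mark either motif. They lie at chr11:99024190-99024389 (Top2a, minus strand), chr10:69352913-69353112 (Cdk1, minus strand) and chr19:37376182-37376381 (Kif11, plus strand).
Top2a: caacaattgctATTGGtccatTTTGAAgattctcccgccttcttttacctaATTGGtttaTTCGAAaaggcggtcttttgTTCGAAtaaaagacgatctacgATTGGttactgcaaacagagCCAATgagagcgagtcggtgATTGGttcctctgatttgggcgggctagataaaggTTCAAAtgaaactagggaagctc
Cdk1: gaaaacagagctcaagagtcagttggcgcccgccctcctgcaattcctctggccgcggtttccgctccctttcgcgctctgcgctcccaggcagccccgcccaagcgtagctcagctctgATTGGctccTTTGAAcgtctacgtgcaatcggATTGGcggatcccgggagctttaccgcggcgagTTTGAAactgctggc
Kif11: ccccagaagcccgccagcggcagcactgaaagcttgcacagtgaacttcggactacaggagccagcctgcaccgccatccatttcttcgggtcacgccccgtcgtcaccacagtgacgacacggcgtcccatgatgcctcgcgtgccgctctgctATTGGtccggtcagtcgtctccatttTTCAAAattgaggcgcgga
The stretch holds 9 motif copies in Top2a, 4 in Cdk1 and 2 in Kif11, a mitotic kinesin gene. A match is a description of letters and not a bound site. Whether the motifs bear on the batch difference was not tested.

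**Figure D4:**
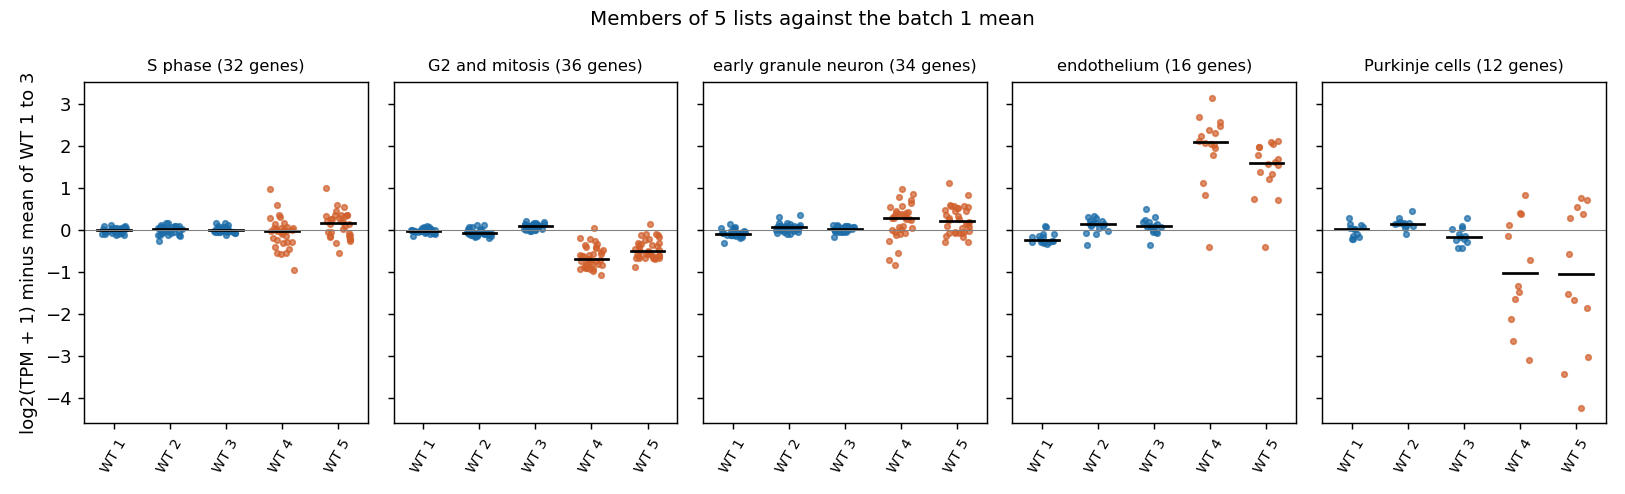
Each point is 1 gene of a list in 1 WT library, as log2(TPM + 1) minus the mean of WT 1 to 3 on the vertical axis (blue for batch 1, orange for batch 2), and black bars are medians. The medians of G2 and mitosis genes lay below 0 and those of endothelium genes above 0 in both batch 2 libraries, with 35 of 36 and 15 of 16 genes differing in that direction.

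Endothelium genes had the largest median difference of the lists drawn here. Of 16, 14 were called higher (87.5%, against 4.16% of all genes tested), with a median of 1.84. Cldn5 differed by 2.62 ± 0.32 SE, Egfl7, an endothelial secreted factor gene, by 1.75 ± 0.20 SE and the glucose transporter gene Slc2a1 by 0.76 ± 0.11 SE (limma adjusted p of 0.0319, 0.0319 and 0.0320). None was called when any 1 library was left out, while 14 or 15 kept an unadjusted p under 0.05 and the median stayed between 1.58 and 2.09. In the limma fit over all 14 libraries none of the 16 was called either, and 9 had an unadjusted p under 0.05. In first-batch libraries of the other genotypes the sums were 287, 868 and 56.5 TPM (Het 1 to 3) and 225 and 667 TPM (Hom 1 and 2), and in second-batch ones 296 and 492 TPM (Het 4 and 5) and 421 and 591 TPM (Hom 3 and 4), so that the batches overlapped there. Mural cell genes had 2 of 9 called higher (22.2%), one of them Rgs5, and by limma none in the fit over all 14 libraries or with any 1 library left out, where 4 to 7 had an unadjusted p under 0.05. The part that blood vessel RNA, other cell types or the sex of the pups had in the other batch differences was not tested.

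Purkinje cell genes had 6 of 12 tested members called lower (50%, against 2.8% of all genes tested) and 1 higher. With 1 library left out, 4 were called lower without WT 4, 1 without WT 3 and none without WT 1, WT 2 or WT 5, while 7 had an unadjusted p under 0.05 each time (limma). Pcp2 differed by -3.66 ± 0.37 SE, Calb1 by -3.03 ± 0.28 SE and Pcp4, a calmodulin-binding protein gene, by -1.75 ± 0.12 SE (limma adjusted p of 0.0308, 0.0251 and 0.0109), whereas Dner was higher by 0.69 ± 0.11 SE. In the inhibitory interneuron list 4 of 12 were called higher (33.3%, against 4.16% of all genes) and none lower, Pax2 by 0.93 ± 0.15 SE. By limma 1 was called in the fit over all 14 libraries and none with any 1 library left out, where 5 to 8 had an unadjusted p under 0.05. Astroglia genes had 2 of 20 called lower (10%, against 2.8%), one of them Fabp7 (-1.80 ± 0.31 SE), none with any 1 library left out (3 to 12 at an unadjusted p under 0.05, limma), and a median of -0.67 that became -0.24 without WT 5 and -1.26 without WT 4. By limma none of the 18 microglia and 16 oligodendroglia genes was called, and an unadjusted p under 0.05 was reached by 1 and 2 of them. Without WT 4, 2 microglia genes were called lower, 16 had an unadjusted p under 0.05 and the median of -0.53 became -1.03, whereas without WT 5 none was called, 1 had an unadjusted p under 0.05 and the median was 0.05. For oligodendroglia the median of -0.09 became -0.43 without WT 4, with 7 genes at an unadjusted p under 0.05, 0.23 without WT 5 and 0.09 without WT 2, with no call in any of these. Of the 25 immediate early genes 1 was called higher (Ier5, named after its value was seen), with a median of 0.78. Without WT 4, 16 were called higher, all 25 had an unadjusted p under 0.05 and the median was 1.83, whereas without WT 5 none was called and the median was -0.48. By limma none was called without WT 1, WT 2 or WT 3, and 2 had an unadjusted p under 0.05 each time.

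Transcription factor genes leaned upward in batch 2. Of 389, 44 were called higher (11.3%, against 4.16% of all genes) and 2 lower, with a median of 0.25. Zic1 (0.55 ± 0.06 SE), Pax6 (0.44 ± 0.09 SE) and Nfix (0.64 ± 0.10 SE) were called, with limma adjusted p of 0.0319, 0.0452 and 0.0320, and so was Chd7 outside that list (0.80 ± 0.15 SE, limma adjusted p = 0.0398). Neurod1 (0.39 ± 0.10 SE) and Atoh1 (0.65 ± 0.24 SE) were not. Without WT 4, 20 of the 389 were called higher, and without any 1 of the other libraries none was, while 91 to 154 had an unadjusted p under 0.05 in these limma fits. Receptors had 18 of 217 called higher (8.29%; none with any 1 library left out, 33 to 70 at an unadjusted p under 0.05 by limma) and none lower, Sstr2 (0.71 ± 0.08 SE) and Adgrg1 (0.52 ± 0.09 SE) among them. Ligands had 8 of 152 called higher, which is 5.26% and near the share of all genes, and ion channels 6 of 179 (3.35%).

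Early granule neuron genes had 7 of 34 called higher (20.6%, against 4.16% of all genes tested), none lower and a median of 0.20, against 0.02 for all genes. Without WT 4 only 1 was called and without any 1 of the others none, while 13 to 15 had an unadjusted p under 0.05 in that direction (limma). Among those called were Crmp1 and the factor gene Neurod2, named after their values were seen, beside Nfix and Sema6a (0.80 ± 0.09 SE). Mature granule neuron genes had no call among 14. Sonic hedgehog response genes had 2 of 18 called higher, Mycn (0.83 ± 0.11 SE) and Ptch1 (0.45 ± 0.09 SE), which is 11.1% of them. Heat shock genes had 4 of 14 called lower (28.6%, against 2.8%), including Hsp90aa1 (-0.56 ± 0.09 SE). With any 1 library left out, 0 or 1 of the Sonic hedgehog genes (the 1 without WT 4) and no heat shock gene was called, while 5 or 6 and 6 to 9 had an unadjusted p under 0.05 in these directions (limma).

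The largest single differences were in pseudogenes and short RNA genes, whose levels are uncertain because reads can be shared with near-identical copies or be too few in a short transcript. Gm8355 was at 97.8, 76.6 and 129.6 TPM in batch 1 and listed at 0 in both WT libraries of batch 2. H3f3c, a copy of the H3.3 genes, was at 35.8, 37.1 and 159 TPM and listed at 0 in WT 4 and 5. Both genes stayed at or under 9.53 TPM in the 4 second-batch Het and Hom libraries, against at least 106.89 TPM in the 5 first-batch ones. Gm4617 was at 10.1, 7.85 and 0 TPM against 141 and 339 TPM. Other falls of this size were in Gm22234, Mir1902, Pcp2 and Gm23344, and other rises in Gm27998, Mir8114, Gm10240, Gm13370 and Gm5812. Gm10240 and Gm13370 had identical values in every WT library.

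The same batch contrast was computed in the Het and in the Hom libraries, which the WT fit did not use. At a limma adjusted p under 0.05, Het batches differed for 10 genes (0.0601%; 7 higher, 0.0421%, and 3 lower, 0.018%) and Hom batches for 3 (0.018%; 2 higher, 0.012%, and 1 lower, 0.00601%). Of the 691 genes higher in WT batch 2, 88.3% had a difference above 0 in Het and 71.8% in Hom, beside 50.7% and 55.4% of all genes tested. Of the 465 lower genes, 89.7% were below 0 in Het and 59.8% in Hom, beside 48.9% and 44.1%. The median difference of G2 and mitosis genes was -0.32 in Het and -0.01 in Hom, and that of endothelium genes 0.51 and 0.30. In a joint fit of all 14 libraries, the WT batch difference differed from the mean of the other genotypes for 2 of 16628 genes (0.012%) at a limma adjusted p under 0.05, and the medians themselves were not tested. An unadjusted p under 0.05 for this difference was reached by 18 of 36 genes of G2 and mitosis and by 2959 of the 16628 genes.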

How the data were processed

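Total RNA from P7 GNPs was sequenced single-end. The authors mapped reads to the mouse mm10 Ensembl transcriptome with Bowtie 1.0.0 and deposited gene-level TPM from RSEM 1.2.15. TPM keeps no read depth, so depth per library, and any counting error, is unknown. The study corrected batches with ComBat, but the deposited TPM held no negative value and were taken as uncorrected. A correction made on a log scale would leave no negative value either, so this point is not settled. Control columns 1 to 5 were read as WT 1 to 5. Batches follow the study's methods. GENCODE gave symbols and positions (GRCm38) for 40340 of 41381 genes.

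Batch 2 (n = 2) was compared with batch 1 (n = 3) in limma 3.58.1 (R 4.3.3; eBayes with intensity trend, two-sided, Benjamini-Hochberg) on log2(TPM + 1), for genes with mean WT TPM of at least 1. This scale understates changes of low genes. The fit was tested on simulated data. P-values measure the spread between libraries, which may be technical. An exact permutation test of 3 against 2 libraries cannot go below p = 0.1 and was not used. Alternatives changed the pseudocount, filter, scaling, trend, weights or libraries. The 29 gene lists and the members were chosen with earlier results of these data known. Genes named were the markers with Chd7, the 10 most abundant genes overall and among nuclear protein-coding genes, the 8 most abundant of each class, the 3 most abundant and the 3 defining genes of other lists, the 6 with largest and smallest spread (mean of at least 10 TPM), and the 6 largest called rises and falls without overlap (mean of at least 5 TPM). Others are further list members, chosen after their values were seen. Some genes that this rule selects are not reported here.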

Additional observations from a re-analysis of the deposited data

Results flagged for a closer look

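With 5 libraries, a value was singled out when its gap to the nearest other library was over 0.71 of the whole range (Dixon's test). Chance gives this for about 1 in 20 groups that are chosen without regard to their spread. Ttr, Npas4, Atf3, Klf2 and Gm23419 were named for their large spread between these same libraries, so that rate does not apply to them. Nor does it apply to genes named after their values were seen. Many genes and sums were screened, so chance alone would give some flags. WT 5 was high for Atoh1 (50.6 TPM), Mcm7 (323 TPM), the glial and progenitor factor gene Sox9 (46.7 TPM), and the immediate early genes Fos (666 TPM), Jun (459.61 TPM), Fosb (227 TPM), Nr4a1 (77.3 TPM), Npas4 (68.5 TPM), Atf3 (96.8 TPM) and Klf2 (46.2 TPM), whose list summed to 3146 TPM. The short RNA gene Gm23419, which lies within the span of Actg1, was at 84.1 TPM in WT 5 and listed at 0 in the other 4.

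WT 5 was low for Apoe (372 TPM) and for the microglia genes Tyrobp (37.6 TPM), Cx3cr1 (13.1 TPM), P2ry12 (7.64 TPM) and C1qa (39.8 TPM), whose list summed to 394 TPM. These early gene and microglia values came from 1 library, and their cause was not tested.

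WT 4 was high for Pdgfrb (13.2 TPM), the meningeal factor gene Foxc1 (3.86 TPM), Aagab (40.5 TPM) and the mural cell sum (181 TPM). WT 1 was high for Ttr (488 TPM), Folr1 (8.98 TPM) and the choroid plexus and ependyma sum (624 TPM). WT 2 was high for Stmn1 (3090.47 TPM) and for the number of genes at a TPM of at least 1 (16618), and WT 3 for H3f3c (159 TPM).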

How the results depend on the processing

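No paired analysis was possible because the WT libraries of the 2 batches share no replicate number. The number of genes called higher in WT batch 2 (691) and the number of genes called lower in WT batch 2 (465) became 146 and 50 when every gene above 0 in at least 2 libraries was tested, 31 and 12 without the intensity trend, and 1198 and 1099 after rescaling over protein-coding genes, which drops the others. Quantile normalization gave 736 lower and array weights 289 lower. Leaving out 1 library gave 5 to 79 higher and 0 to 15 lower (limma), with 1591 to 2089 lower at an unadjusted p under 0.05. Without WT 4 or WT 5 the lone second-batch library is assumed to vary like the others. The cause of these changes was not tested. Among 61 called genes checked, which include the called genes named above, no direction reversed under any of the alternatives run, but with 1 library left out at a time 272 calls were lost and 33 kept. The 61 genes were chosen because they were called in these libraries, so the lack of reversals was largely fixed in advance and is no support for them. The median of the immediate early genes, 0.78, became -0.48 without WT 5 and 1.83 without WT 4 (median batch difference of the list immediate early genes). The number of genes at a mean of at least 1 TPM (16628) became 18456 at 0.5 TPM, 12268 at 5 TPM, 14658 when required in every library and 17124 after rescaling over protein-coding genes. The share of the 10 most abundant genes, over the mean of all WT libraries, became 4.59% over protein-coding genes only. The depth of each library is unknown, so the precision of low values is too.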
